A study of Mus musculus with 4 samples.

Results

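Where dimeric p53 and PPAR-alpha met the genes that build sterols, fatty acids and triglycerides was read from ChIP-seq of mouse thymus. The genes are 38 named members of these pathways among 21883 protein-coding genes, listed by name for their roles, with earlier results of these data known, and all 38 were found in the RefSeq gene table. They comprise 5 regulators, 17 genes of sterol synthesis and transport, 6 of fatty acid synthesis, 5 of fatty acid elongation or desaturation and 5 of triglyceride synthesis. The mice were p53 AD/AD homozygotes killed at 4 weeks, in every library, so no wild-type group enters any comparison. The sample titles name no treatment. In this germline allele p53 forms dimers. There were 2 p53 libraries and 1 PPAR-alpha library. Reads were 50 nt long for p53 and 75 nt for PPAR-alpha, which means that effects of antibody and of read length cannot be told apart. The labels do not say whether the p53 libraries came from separate mice, or whether animals were pooled. An input library is labelled but not analysed here.

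The deposited lists give the summit of each called peak, the base where reads pile up highest, with a score read here as −log10 of a p- or q-value. For p53 the list of replicate 1 holds 3608 summits and that of replicate 2 holds 4767, and the PPAR-alpha list holds 4070. Their median scores are 3.99, 3.62 and 4.70, and later runs of 3 values keep this order. Read depth is unknown, so a gene without a summit was not called at that depth and is not shown to be unbound. Scores are the authors' and are compared only within a list. Of 15 thymocyte marker genes, 12, 14 and 12 had a summit within 5 kb. Of 9 adipocyte markers, whose cells make much lipid, each list had 1, but not the same gene. It was Fabp4 in p53 replicate 1 and PPAR-alpha, and Cfd in p53 replicate 2. Of all protein-coding genes 12.95%, 16.4% and 12.3% had a summit within 5 kb. Summits measure binding or recovery of chromatin, not expression of a marker.

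Cells make cholesterol from acetyl-CoA through mevalonate and squalene, and fatty acids from the same precursor through malonyl-CoA. The transcription factors SREBP1 and SREBP2, encoded by Srebf1 and Srebf2, switch these genes on when sterols are scarce. PPAR-alpha is a nuclear receptor known for driving fatty acid oxidation, and wild-type p53 is known to restrain SREBP-dependent lipid synthesis in other tissues. Dividing thymocytes need new membrane lipid.

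Summits lay near a minority of the 38 genes in every list, and within 5 kb the shares were near those of all protein-coding genes. A gene was counted when a summit lay within 5 kb of either of its annotated ends. In p53 replicate 1 this held for 7 genes, or 18.4% (exact Clopper-Pearson 95% interval 7.74 to 34.3%), beside 12.95% of all genes. In p53 replicate 2 it held for 8 genes, or 21.1% (9.55 to 37.3%), beside 16.4%. In PPAR-alpha it held for 6 genes, or 15.8% (6.02 to 31.3%), beside 12.3%. Each interval, which covers counting error only, holds the share of all genes. Srebf1, Mvk, Stard4, Elovl5 and Elovl6 had a summit in both p53 replicates (5 genes, 13.2%, beside 7.97% of all genes). Elovl5 and Elovl6 alone had one in all 3 lists (2 genes, 5.26%, beside 4.87%). Any list gave 14 genes (36.8%, beside 24.7%).

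Within 1 kb the counts were 4, 7 and 4 genes, beside 9.21%, 11.9% and 8.80% of all genes. Within 20 kb they were 12, 12 and 11 genes (31.6%, 31.6% and 28.9%), beside 20.02%, 24.9% and 19.4%. Counting summits anywhere inside a gene as well as those within 5 kb gave 9, 9 and 8 genes, beside 14.6%, 18.3% and 14.3%. Inside the gene, whatever the distance to its ends, lay summits of 8 members in p53 replicate 1, or 21.1% (exact 95% interval 9.55 to 37.3%), beside 9.48% of all genes. The lower bound of that interval lay just above the share of all genes. In p53 replicate 2 the count was also 8, or 21.1% (9.55 to 37.3%), beside 11.6%, and in PPAR-alpha it was 5, or 13.2% (4.41 to 28.1%), beside 9.36%. The members had a median length of 21866 bp, against 17170 bp for all genes, and the part of length in these shares was not tested.

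**Figure D1:**
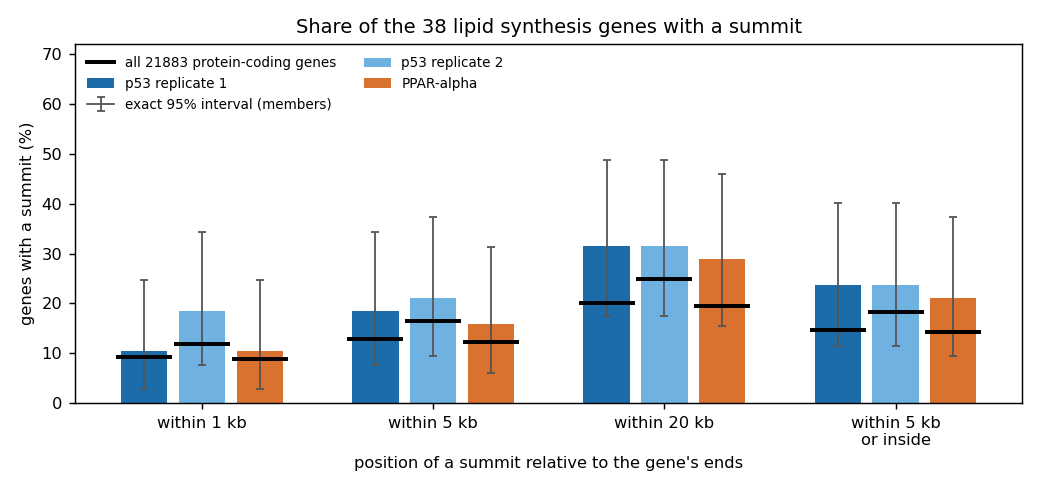
Share of the 38 genes with a summit (bars, with exact 95% intervals) by distance window, for each of the 3 lists. Black lines give the share of all 21883 protein-coding genes, which lies within the interval of the members in each list for the 4 windows plotted.

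Few genes lay close to the 5 kb limit. Just inside it lay the PPAR-alpha summit of Pmvk (4791 bp from a gene end) and the p53 replicate 1 summit of Insig2 (4608 bp). Just outside lay the summits within Dhcr7 (6538 bp in p53 replicate 1 and 6689 bp in PPAR-alpha) and the p53 replicate 2 summit beyond Me1 (8966 bp).

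Among these summits the p53 scores were mostly at or under the median of their list, and the PPAR-alpha scores lay on both sides of theirs. Within 5 kb of a member lay 8 summits of p53 replicate 1, scoring 2.18 to 4.70, and 11 of p53 replicate 2, scoring 1.83 to 3.62. The 8 PPAR-alpha summits there scored 2.57 to 7.88. Above the median of the own list lay 1 of 8, 0 of 11 and 5 of 8. Over all summits within 5 kb of a protein-coding gene end these shares were 40.9%, 38.7% and 44.9%. No member had a summit scoring 10 or more within 5 kb, where 4.38%, 3.81% and 13.6% of all summits near gene ends did. None inside a member did either. With 8, 11 and 8 summits within 5 kb, this lack does not set the members apart. None of the member summits lay in a dense run, meaning 5 or more summits of a list within 10 kb to either side.

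**Figure D2:**
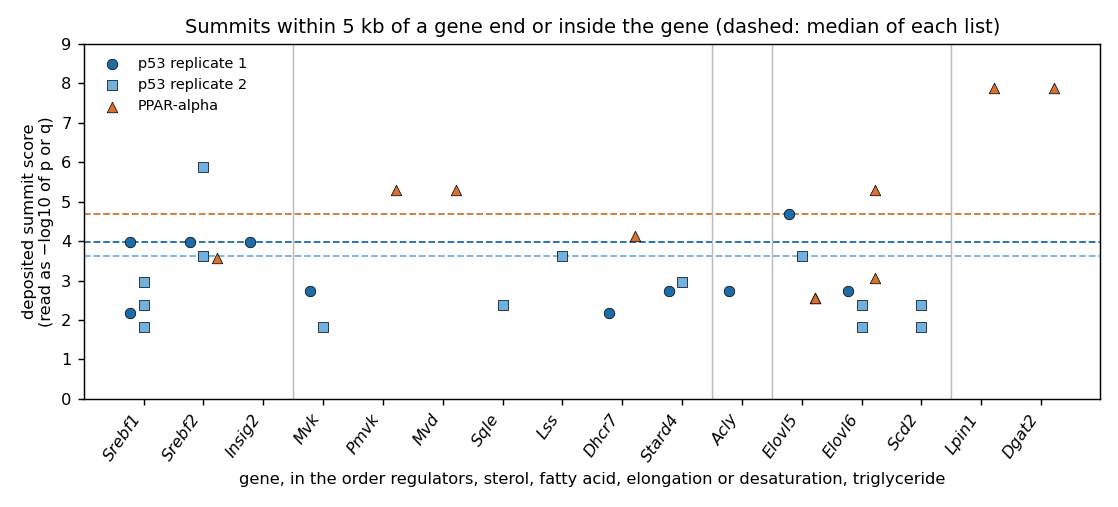
Deposited score of each summit within 5 kb of a gene end or inside the gene, for the 16 genes that had one, with dashed lines at the median of each list. The highest of the PPAR-alpha summits were those of Lpin1 and Dgat2 at 7.88, and most p53 summits lay at or under the median of their list. The 2 PPAR-alpha summits of Elovl5 have the same score and overlap.

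The regulators were led by the 2 SREBP genes, which had p53 summits in both replicates. Srebf1 (chr11:60199084-60224186, minus strand) encodes SREBP1, the factor that favours fatty acid genes. It has 3 annotated start sites, and p53 summits lay near each, while PPAR-alpha had none within 5 kb or inside. At the start at 60222581, replicate 1 had a summit 93 bp downstream with a score of 3.99, and replicate 2 had one 570 bp upstream with 1.83. At the start at 60220627, replicate 1 had a summit 472 bp downstream (score 2.18) and replicate 2 one 348 bp downstream (2.37). The summits of this pair lay 124 bp apart, at 60220155 and 60220279. At the start at 60210471 replicate 2 alone had a summit, 316 bp upstream (2.97). The nearest PPAR-alpha summit (5.30) lay 11514 bp outside the gene and closer to Tom1l2. Each p53 score at Srebf1 was at or below the median of its list.

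The 250 bases before 2 Srebf1 starts are shown because each of these starts had a summit of both p53 replicates within 1 kb. They are from RefSeq (GRCm38.p6), 5′ to 3′ along the gene. Capitals, here and in the sequences further on, mark a CCAAT box (CCAAT, bound by NF-Y), a GC box (GGGCGG, bound by SP1), an E-box (CACGTG) or a nuclear receptor site (AGGTCA), on either strand. The first window is chr11:60222582-60222831 and the second chr11:60220628-60220877, both on the minus strand.
Srebf1 start at 60222581: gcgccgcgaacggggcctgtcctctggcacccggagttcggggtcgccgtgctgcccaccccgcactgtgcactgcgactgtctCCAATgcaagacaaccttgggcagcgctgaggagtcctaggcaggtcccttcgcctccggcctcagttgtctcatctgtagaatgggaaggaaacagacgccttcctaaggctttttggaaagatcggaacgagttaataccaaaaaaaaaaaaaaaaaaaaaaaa
Srebf1 start at 60220627: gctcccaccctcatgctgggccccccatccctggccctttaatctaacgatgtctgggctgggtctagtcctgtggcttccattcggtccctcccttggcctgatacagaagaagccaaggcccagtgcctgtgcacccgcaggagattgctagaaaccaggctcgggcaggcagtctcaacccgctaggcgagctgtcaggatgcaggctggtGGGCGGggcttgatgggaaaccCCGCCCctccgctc
The first holds 1 CCAAT box and the second 2 GC boxes. The replicate 1 and replicate 2 summits lie outside both windows, at the distances given above.

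Srebf2 (chr15:82147269-82205379, plus strand) encodes SREBP2, the factor that favours sterol genes. Its summits lay deep inside the gene and none near its start. At 14965 bp and 14884 bp from the start, p53 replicate 1 had a summit scoring 3.99 and replicate 2 one scoring 5.88, 81 bp apart at 82162234 and 82162153. The latter scored above 81.9% of its list and was the highest p53 summit among all members. Further in, replicate 2 (82166413, score 3.62) and PPAR-alpha (82166353, score 3.58) had summits 60 bp apart, 19144 bp and 19084 bp from the start. Replicate 1 had no summit at that second position, and PPAR-alpha none at the first. Exons and introns were not told apart here.

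Insig2, which holds the SREBP complex in the endoplasmic reticulum, had 1 summit, in p53 replicate 1 (121328054 on chromosome 1, score 3.99). It lay 30 bp upstream of an annotated start within the gene. Scap, which escorts SREBP to the Golgi, and Insig1, which has the same role as Insig2, had none within 20 kb in any list. For Scap the nearest p53 summits lay 28186 bp and 23423 bp away in replicates 1 and 2. With summits inside the gene counted, 3 of the 5 regulators were met in p53 replicate 1, 2 in replicate 2 and 1 in PPAR-alpha. The shares of all genes were 14.6%, 18.3% and 14.3%. With 5 genes the exact 95% intervals were wide, at 14.7 to 94.7%, 5.27 to 85.3% and 0.505 to 71.6%.

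**Figure D3:**
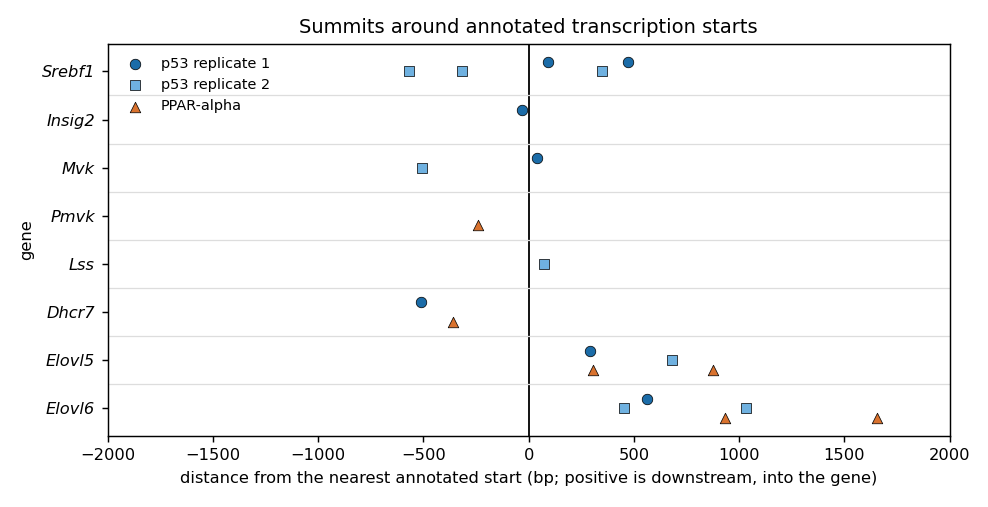
Position of summits within 2000 bp of the nearest annotated start, positive values being downstream, for the 8 members with a start in the table and such a summit. Elovl5 and Elovl6 summits of all 3 lists lie downstream of the start, and those of Dhcr7 upstream. Srebf1 has 3 starts, each summit being placed against its nearest.

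Of the 17 sterol genes, 2, 4 and 2 had a summit within 5 kb in the 3 lists (11.8%, 23.5% and 11.8%). The shares of all genes were 12.95%, 16.4% and 12.3%. No sterol gene had both antibodies there. Of all genes, 6.42% had both PPAR-alpha and p53 replicate 1 and 7.41% both PPAR-alpha and replicate 2. With 17 genes, the lack of overlap is therefore not shown to set sterol genes apart. Mvk and Stard4 were met by both p53 replicates. Mvk (chr5:114444264-114460591) encodes mevalonate kinase, an early enzyme of the path. Replicate 1 had a summit 41 bp downstream of its start (114444310, score 2.74). The replicate 2 summit lay 507 bp upstream (114443762, score 1.83), 548 bp from the other and closer to the end of the neighbouring gene Mmab (311 bp). Both scores were among the lower ones, above 12.4% and 2.60% of their lists. The nearest PPAR-alpha summit lay 63394 bp from Mvk.

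The 250 bases before the Mvk start (chr5:114444019-114444268, plus strand) are shown since the replicate summits lie on either side of them.
Mvk: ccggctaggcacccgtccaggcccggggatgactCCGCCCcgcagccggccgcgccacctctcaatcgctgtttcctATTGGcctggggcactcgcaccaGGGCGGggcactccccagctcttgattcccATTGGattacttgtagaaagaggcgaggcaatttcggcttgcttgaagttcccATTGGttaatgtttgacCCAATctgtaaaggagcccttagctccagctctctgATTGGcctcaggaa
They hold 5 CCAAT boxes, of which 4 read ATTGG as printed, and 2 GC boxes.

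Stard4, which carries sterols between membranes, lies on chromosome 18 (33199138 to 33213862). Its p53 summits lay 228 bp and 128 bp inside one gene end, at 33213634 (score 2.74) and 33213734 (2.97) in replicates 1 and 2. They lay 100 bp apart. PPAR-alpha had none within 20 kb. Sqle, encoding squalene epoxidase, and Lss, encoding lanosterol synthase, catalyse consecutive steps, and each had a summit in p53 replicate 2 alone. The Sqle summit lay 37 bp inside a gene end (59315129 on chromosome 15, score 2.37). The Lss summit lay 73 bp downstream of its start (76531678 on chromosome 10, score 3.62). The nearest replicate 1 summits lay 193789 bp and 498768 bp away, so these calls rest on 1 library.

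PPAR-alpha was alone near 2 neighbouring steps of the mevalonate path. Pmvk, phosphomevalonate kinase, had a summit 239 bp upstream of an annotated start within the gene (89459332 on chromosome 3, score 5.30). Mvd, mevalonate diphosphate decarboxylase, had one 168 bp beyond the end of the gene opposite its start (122433428 on chromosome 8, score 5.30). The p53 summits within 20 kb of Mvd lay upstream and closer to another gene, 405 bp and 646 bp from the end of Snai3. Dhcr7, which completes cholesterol, had summits of p53 replicate 1 (143829705, score 2.18) and PPAR-alpha (143829856, score 4.13) inside the gene on chromosome 7, 151 bp apart. They lay 509 bp and 358 bp upstream of a start at 143830214, and replicate 2 had none within 20 kb.

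The 250 bases before that inner Dhcr7 start (chr7:143829964-143830213, plus strand) are shown because p53 and PPAR-alpha summits both lay just beyond their upstream edge.
Dhcr7: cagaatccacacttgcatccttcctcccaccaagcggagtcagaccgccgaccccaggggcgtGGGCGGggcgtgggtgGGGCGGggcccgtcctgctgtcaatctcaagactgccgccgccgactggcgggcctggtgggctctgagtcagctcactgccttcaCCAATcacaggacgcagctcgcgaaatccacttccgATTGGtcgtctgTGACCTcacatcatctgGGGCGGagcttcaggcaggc
They hold 3 GC boxes, 2 CCAAT boxes and 1 nuclear receptor site, the last reading TGACCT as printed.

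The other 10 sterol genes had no summit within 5 kb or inside in any list. They were Hmgcs1, which commits acetyl-CoA units to mevalonate, Idi1 and Fdps of the isoprenoid steps, Fdft1, the squalene synthase gene, and Cyp51, Msmo1, Nsdhl, Hsd17b7, Ebp and Sc5d, which trim lanosterol towards cholesterol. Near Idi1 the p53 replicate 1 and PPAR-alpha lists had 2 summits each within 20 kb, at 14273 to 15336 bp. All 4 lay closer to Wdr37, the nearest pair being 88 bp apart. The remaining 9 genes had none within 20 kb. Nsdhl and Ebp lie on chromosome X, where 14 of 966 genes (1.45%) had a summit within 5 kb in any list, against 26.1% of autosomal genes. Of the 36 autosomal members 14 had one.

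Of the 6 genes of fatty acid synthesis, Acly alone had a summit within 5 kb in any list, where 24.7% of all genes had one. It was found in p53 replicate 1 (100472720 on chromosome 11, score 2.74). Acly encodes ATP citrate lyase, which supplies cytosolic acetyl-CoA. The summit lay 3632 bp beyond the end of Acly opposite its start and 62 bp from the end of Klhl11. Fasn, the fatty acid synthase gene, had its nearest summits 132851 bp, 92506 bp and 92265 bp away in the 3 lists. Acaca, encoding the cytosolic acetyl-CoA carboxylase, spans 272017 bp and had no summit inside it or within 20 kb. Acss2, which makes acetyl-CoA from acetate, had none within 20 kb either. For Acacb, the carboxylase isoform at mitochondria, p53 replicate 1 (score 1.68) and PPAR-alpha (4.70) had summits 14755 bp and 15462 bp away, 333 bp and 374 bp from the end of Alkbh2. The p53 replicate 2 summit 8966 bp from Me1, the NADPH-producing malic enzyme gene, lay 409 bp from Rwdd2a.

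**Figure D4:**
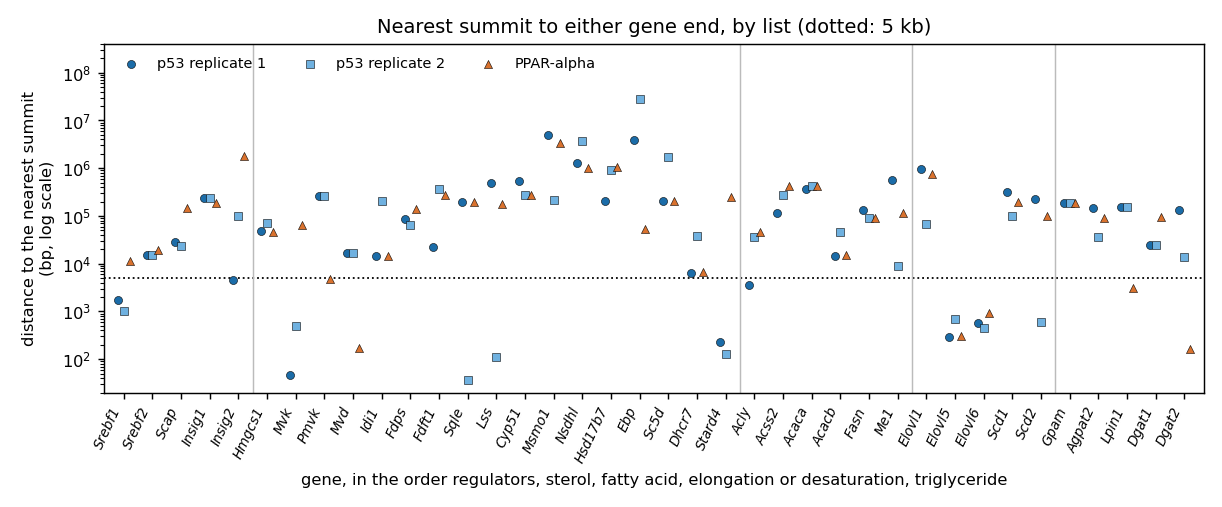
Distance (bp, log scale) from either end of each of the 38 genes to the nearest summit of each list, with a dotted line at 5 kb. Elovl5 and Elovl6 lie under the line in all 3 lists, and the fatty acid synthesis genes lie above it except Acly in p53 replicate 1.

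Elongation and desaturation genes had summits within 5 kb of 2, 3 and 2 of 5 genes in the 3 lists, beside 12.95%, 16.4% and 12.3% of all genes. The exact 95% intervals, 5.27 to 85.3%, 14.7 to 94.7% and 5.27 to 85.3%, hold these shares. Both genes met in all 3 lists belong here. Elovl5 (chr9:77917365-77984519, plus strand) encodes an elongase of polyunsaturated fatty acids. Its p53 summits lay 291 bp (77917656, score 4.70) and 682 bp (77918047, score 3.62) downstream of the start in replicates 1 and 2. PPAR-alpha had 2 summits, 306 bp and 874 bp downstream (77917671 and 77918239), each scoring 2.57. Replicate 1 and PPAR-alpha thus lay 15 bp apart, replicate 2 and PPAR-alpha 192 bp, and the p53 replicates 391 bp. The replicate 1 summit was the only one of the 8 within 5 kb of a member to exceed the median of its list.

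Elovl6 (chr3:129532386-129638495, plus strand) encodes the elongase that turns palmitate into stearate. Replicate 1 had a summit 560 bp downstream of the start (129532946, score 2.74). Replicate 2 had summits 453 bp and 1033 bp downstream (129532839 and 129533419, scores 2.37 and 1.83). PPAR-alpha had summits at 931 bp and 1653 bp (129533317 and 129534039, scores 5.30 and 3.06). The p53 replicates lay 107 bp apart, and replicate 2 and PPAR-alpha 102 bp. All 5 summits lay in the first part of the gene, and none within 100 bp of a summit of another list.

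The windows before both starts, chr9:77917115-77917364 for Elovl5 and chr3:129532136-129532385 for Elovl6, are shown because these genes alone were met by all 3 lists within 5 kb.
Elovl5: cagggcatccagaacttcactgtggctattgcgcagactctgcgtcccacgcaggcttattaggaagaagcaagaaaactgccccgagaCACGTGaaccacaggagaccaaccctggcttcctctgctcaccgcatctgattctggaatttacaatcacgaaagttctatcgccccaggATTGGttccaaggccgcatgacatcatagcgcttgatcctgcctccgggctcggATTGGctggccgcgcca
Elovl6: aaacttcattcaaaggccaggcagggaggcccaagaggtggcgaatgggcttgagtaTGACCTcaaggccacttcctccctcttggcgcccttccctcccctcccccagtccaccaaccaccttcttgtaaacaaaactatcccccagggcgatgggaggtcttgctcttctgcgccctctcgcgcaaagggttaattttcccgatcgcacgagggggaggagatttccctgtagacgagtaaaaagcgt
The Elovl5 window holds 2 CCAAT boxes, both reading ATTGG as printed, and 1 E-box. The Elovl6 window holds 1 nuclear receptor site, reading TGACCT as printed, and no CCAAT or GC box. G and C make up 55.6% and 56.4% of their bases. All summits of both genes lie downstream of these windows.

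Scd2, a stearoyl-CoA desaturase gene that makes monounsaturated fatty acids, had 2 summits in p53 replicate 2 alone, 587 bp and 1978 bp inside a gene end (44294263 and 44295654 on chromosome 19, scores 2.37 and 1.83). Its neighbour and paralog Scd1 had none within 20 kb, the nearest lying 98796 bp away. Elovl1, an elongase gene of very long saturated chains, had none within 20 kb.

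Triglyceride synthesis was met by PPAR-alpha and not by p53 within 5 kb. Each p53 list met 0 of the 5 genes (exact 95% interval 0 to 52.2%), beside 12.95% and 16.4% of all genes. PPAR-alpha met 2 of them (5.27 to 85.3%), beside 12.3%. Each interval holds the share of all genes, and the difference between antibodies was not tested. Of the 5 genes, Lpin1 and Dgat2 had a PPAR-alpha summit within 5 kb, both scoring 7.88, above 73.0% of the list. Lpin1 (chr12:16535669-16653903, minus strand) encodes the phosphatase that makes diacylglycerol. Its summit (16532643) lay 3026 bp beyond the end of the gene opposite its start, 78323 bp from that start. Dgat2 (chr7:99153663-99182713) encodes an enzyme of the last step, which adds the final acyl chain. Its summit (99182878) lay 165 bp outside the gene. Near Dgat2 the closest p53 summits lay 135942 bp away in replicate 1 and 13923 bp away in replicate 2, the latter 1427 bp from Uvrag. Near Lpin1 they lay 157027 bp and 157039 bp away. Dgat1, the other enzyme of the last step, and Gpam and Agpat2, which attach the earlier chains, had none within 20 kb in any list.

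Set side by side, the counts differed by step in which antibody met them, and with 5 to 17 genes a step this was not tested. PPAR-alpha without p53 met Pmvk, Mvd, Lpin1 and Dgat2 (4 genes, 10.5%, beside 3.34% of all genes). Both p53 replicates without PPAR-alpha met Srebf1, Mvk and Stard4 (3 genes, 7.89%, beside 3.10%). With summits inside genes added, Srebf2 joined Elovl5 and Elovl6 among the genes met in all 3 lists (3 genes, beside 6.05%). PPAR-alpha has no replicate, so its single calls could not be checked against another library.

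Agreement between p53 replicates at a gene was mostly not agreement at a base, among the members and over all genes. Of the 1743 genes with a summit of both replicates within 5 kb, 713 kept a shared position within 100 bp. Among the members such a position was left at Stard4 alone (1 gene, beside 3.26% of all genes). The pair inside Srebf2 was the only other among the summits inside members. At Elovl6, Srebf1, Elovl5 and Mvk the closest p53 pair lay 107, 124, 391 and 548 bp apart.

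Of the 34 summits within 5 kb or inside the members, 28 belonged to the 12 genes whose starts are in the table. Of these 28, 19 lay within 1 kb of a start, 12 downstream and 7 upstream. Of the 34, 3 lay closer to an end of another gene, which were those of Acly and Mvk named above and the Srebf1 summit at 60210787, nearer to Rai1.

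The promoters of the members were searched for sites of known regulators of lipid synthesis, in the 250 bases before each start and on both strands. RefSeq starts were matched for 30 of the 38 genes, with 41 starts. A CCAAT box stood in 25 of the 41, beside 33.8% of all 32851 promoters, and a GC box in 27, beside 32.7%. The strict sterol response element TCACNCCAC stood in 1, that of Hmgcs1, beside 1.05%, and Hmgcs1 had no summit within 20 kb. The E-box stood in 6, beside 6.02%, and the nuclear receptor site AGGTCA in 10, beside 14.0%. The paired form AGGTCANAGGTCA, which contains that site and is the classical PPAR element, stood in none, beside 0.0335%. The p53 decamer stood in 5, beside 7.13%, and of the 5 genes, Scap, Hmgcs1, Nsdhl, Sc5d and Dhcr7, only Dhcr7 had a summit within 5 kb or inside. Dhcr7 has 3 annotated starts, and its decamer is not in the window printed above, before the start nearest its summits. A match is a run of letters and not a shown site. Of the 24 genes with a CCAAT box 9 had a summit within 5 kb or inside in some list, beside 12 of all 30.

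Other genes of lipid synthesis and its control, 71 in all and named by a list, gave like shares. Within 5 kb, 14, 15 and 15 of them had a summit in the 3 lists (19.7%, 21.1% and 21.1%). The shares of all genes were 12.95%, 16.4% and 12.3%. Both p53 replicates met 6 (8.45%, beside 7.97% of all genes) and all 3 lists met 4 (5.63%, beside 4.87%). The last 2 shares are near those of all genes. Those 4 were Mbtps1, Nr1h3, Usf2 and Lbr. Mbtps1 encodes the site-1 protease that cuts SREBP free in the Golgi. Its summits lay at 119558501, 119558507 and 119558578 of chromosome 8, 363, 357 and 286 bp from its end, with scores of 7.93, 5.08 and 9.27. They ranked above 89.3%, 73.7% and 79.2% of their lists, higher than any member in the p53 replicate 1 list and in PPAR-alpha. Usf2, an E-box factor gene, had scores of 5.45, 2.97 and 4.70, and Lbr, a sterol reductase of the nuclear envelope, 5.45, 1.83 and 4.70. The highest summits near Nr1h3, the LXR-alpha gene, lay closer to Madd or Acp2.

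By group, and beside the 12.95%, 16.4% and 12.3% of all genes within 5 kb, transcription partners of SREBP had summits in 4, 3 and 5 of 10 genes, and SREBP processing genes in 2, 4 and 1 of 9. The remaining sterol enzymes had them in 3, 3 and 1 of 7, and sterol storage and efflux genes in 2, 0 and 2 of 8. Further fatty acid, elongation and desaturation genes had them in 2, 3 and 1 of 21, and further glycerolipid genes in 1, 2 and 5 of 16. For comparison, 6, 8 and 6 of 29 fatty acid oxidation genes (20.7%, 27.6% and 20.7%) and 5, 5 and 7 of 21 glycolysis genes (23.8%, 23.8% and 33.3%) had a summit in the 3 lists. The differences from the 38 synthesis genes were not tested.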

How the data were processed

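ChIP-seq summits of 2 p53 libraries and 1 PPAR-alpha library from p53 AD/AD thymus were used as deposited, 1 list per library. The authors' score per summit was taken to be −log10 of a p- or q-value because the deposited values have that form and range; the labels name no unit. The submitters' processing notes list MACS2 2.1.2, Bowtie2 2.3.4.2 and Picard 2.9.0 but no settings. Threshold, control and read numbers: not given in the sources used here.

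The notes name GRCh38 for mouse tissue. On RefSeq GRCm38.p6, 49.2%, 49.0% and 42.0% of the p53 replicate 1, replicate 2 and PPAR-alpha summits lay within 1 kb of a protein-coding gene end. After moving them by 50 kb either way, 6.38% to 7.82% did, so GRCm38 was used. Positions count from 1. The background was 21883 protein-coding genes on the autosomes and sex chromosomes. Start sites came from the RefSeq promoter table.

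The members and lists were chosen with earlier results of these data known, so lists were counted beside all genes and not tested. Members with a summit within 5 kb or inside are named with it, the others by distance. Sequence is shown for starts with a summit within 1 kb in 2 or more lists. Shares have exact Clopper-Pearson 95% intervals (scipy 1.17.1). Window, score, neighbour, sharing and library alternatives were tried. The gene assignment was tested on simulated data.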

Additional observations from a re-analysis of the deposited data

How the results depend on the processing

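Of 66 alternative counts of members near a summit, 45 were within 1.5 times the count reported. The distance set several. Within 1 kb the count was 4 in p53 replicate 1 and 9 in any list. These were 10.5% and 23.7%, beside 9.21% and 19% of all genes. Within 20 kb the count was 12 in p53 replicate 1, 11 in PPAR-alpha and 5 in all 3 lists. These were 31.6%, 28.9% and 13.2%, beside 20.02%, 19.4% and 9.3% of all genes. The shares of all genes thus moved with distance too. The score set most. At scores of 5 or more the count was 0 in p53 replicate 1, 0 in p53 replicate 2, 0 in both p53 replicates and 0 in all 3 lists. It was 5 in any list and 5 in PPAR-alpha, beside 10.9% and 6.07% of all genes. At 10 or more it was 0 in each of the 6 sets, where 0.219% to 2.79% of all genes had a summit. With 38 genes, counts of 0 beside shares that low do not set the members apart. Of all genes, 4.19% and 5.31% had such a p53 summit of 5 or more in replicates 1 and 2. Where summits themselves had to be shared, both p53 replicates gave 0 members within 50 bp and 1 within 100 bp, beside 1.92% and 3.26% of all genes. All 3 lists gave 0 at either distance, beside 0.553% and 1.21%. Without p53 replicate 1 or replicate 2 the count for both p53 replicates was 8 or 7, that of the remaining library alone. The shares of all genes were then 16.4% or 12.95%. For all 3 lists it was 2 (5.26%) without replicate 1 and 2 without replicate 2, beside 7.41% and 6.42% of all genes. For any list it was 12 without replicate 1 and 11 without replicate 2, beside 21.3% and 18.8% of all genes. Counting the nearest gene only, or adding summits inside genes, left all 6 counts within 1.5 times. Leaving out dense runs, scores of 50 or more or the sex chromosomes could not change any count. No member summit within 5 kb lay in a dense run or scored 10 or more, and no member on chromosome X had one. Counts at these settings are among the 45 and are no sign of stability. No paired analysis was possible because the results are counts of genes with no test, and only the p53 libraries carry replicate numbers. Depth is unknown, so an absent summit is no evidence of absent binding.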
